A study of Mus musculus with 4 samples.

Results

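The Hox genes encode homeodomain transcription factors that give cells along the body axis and the limbs their positional identity. In mice they lie in 4 clusters, Hoxa on chromosome 6, Hoxb on chromosome 11, Hoxc on chromosome 15 and Hoxd on chromosome 2. Genes at the same rank of different clusters form paralog groups numbered 1 to 13. Low-numbered groups mark the hindbrain and neck, the middle groups the trunk, and the high-numbered groups the tail, the distal limbs and the urogenital tract. Polycomb complexes keep the clusters silent in embryonic stem (ES) cells, while fibroblasts and other mesenchymal cells in culture keep expressing the Hox genes of the place in the body they came from.

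The members were the probe sets that the platform annotation assigns to 1 gene with a symbol of the form Hoxa, Hoxb, Hoxc or Hoxd plus a number. There were 48 of them among 45101 probe sets, for 33 genes, 11 of which had more than 1 probe set. Hox genes without such a probe set were not analysed here. RNA came from 2 wild-type (WT) ES cell clones and 2 ES cell clones in which Klf5, the gene of a Kruppel-like transcription factor, was knocked out (KO), each hybridised to 1 Affymetrix GeneChip array. All clones grew in ES medium with fetal bovine serum and LIF, a cytokine that holds them in the undifferentiated state. The sources used here do not give the strain of the cells, how Klf5 was inactivated or whether feeder cells were present. The study looked for genes down in the absence of Klf5, and the comparison made here is whether Hox genes read differently in KO and WT clones, and which paralog groups did so. With 2 clones per group, p-values measure only the spread between these clones. The spread of each probe set was drawn towards that of all tested probe sets (2 residual and 6.87 prior degrees of freedom).

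The brightest Klf5 probe set read a normalized intensity of 2398 and 1782 in the WT pair, clone 1 first here and throughout, and 34.8 and 49.9 in the KO pair, which separated the arrays as labelled. Another, 1451739_at, read 102 and 88.6 in the WT pair and 82.6 and 61.0 in the KO pair (-0.35 ± 0.20, limma, adjusted p = 0.36), and the dimmest, 1430255_at, read at most 14.8. How the probe sets lie relative to the inactivated part of Klf5 was not analysed. The trimmed mean of the deposited intensities ran from 138 to 227 over the 4 arrays. Of 20 genes of the ES cell list, Pou5f1, Sox2 and Nanog among them, 20 read above the level of sensory receptors, defined below, on every array. Of 29 fibroblast and feeder cell genes with a probe set, 27 passed the filter on dim probe sets. Over all tested probe sets 2.44% were called higher in KO clones and 1.25% lower. Of the 27 genes, 22 rose in KO clones and 0 fell (limma, adjusted p under 0.05). That count was 12 without KO clone 1, 14 without KO clone 2, 10 at a pseudocount of 1 and 11 when no filter was used. Col6a1, Dcn and Dpt, among those that rose, read under the filter on both WT arrays and passed it through their KO arrays. The summed intensity of all 29 was 11919 and 8663 in the WT pair and 27250 and 28642 in the KO pair. Fap, a membrane protease of activated fibroblasts, and Lum, the proteoglycan lumican, did not exceed the level of sensory receptors in both KO clones. The part of these fibroblast gene differences in the Hox values that follow was not tested. In bulk RNA, a change in the share of cells that express a gene and a change in RNA per cell cannot be told apart.

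Promoter sequences show where the measured genes start. The table of RefSeq promoters used here held 24 for 22 Hox genes, 19 of them among the 33 measured. Hoxc8, Hoxb6, Hoxb2, Hoxb3, Hoxc6 and Hoxb9 were without an entry, and the 3 promoters that follow belong to neighbours in the Hoxd cluster. Hoxd8 and Hoxd9 read higher on both KO arrays than on either WT array, and Hoxd10 was dim on all arrays. Each runs 5′ to 3′ on the plus strand of GRCm38.p6, from 250 bases before to 50 bases after the start, and capitals mark a match to a motif. The intervals are chr2:74704365-74704664 for Hoxd8, chr2:74697513-74697812 for Hoxd9 and chr2:74691641-74691940 for Hoxd10.
Hoxd8: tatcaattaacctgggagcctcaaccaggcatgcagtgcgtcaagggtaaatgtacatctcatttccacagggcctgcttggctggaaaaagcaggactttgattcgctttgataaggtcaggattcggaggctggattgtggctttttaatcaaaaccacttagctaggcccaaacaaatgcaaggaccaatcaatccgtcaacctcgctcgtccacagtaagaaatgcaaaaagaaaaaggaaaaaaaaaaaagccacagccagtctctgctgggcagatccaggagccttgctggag
Hoxd9: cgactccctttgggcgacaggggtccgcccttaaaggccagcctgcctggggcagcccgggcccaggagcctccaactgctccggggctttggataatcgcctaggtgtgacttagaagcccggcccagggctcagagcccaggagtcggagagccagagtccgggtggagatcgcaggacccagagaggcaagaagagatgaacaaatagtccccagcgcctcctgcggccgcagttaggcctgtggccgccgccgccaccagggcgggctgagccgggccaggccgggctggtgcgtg
Hoxd10: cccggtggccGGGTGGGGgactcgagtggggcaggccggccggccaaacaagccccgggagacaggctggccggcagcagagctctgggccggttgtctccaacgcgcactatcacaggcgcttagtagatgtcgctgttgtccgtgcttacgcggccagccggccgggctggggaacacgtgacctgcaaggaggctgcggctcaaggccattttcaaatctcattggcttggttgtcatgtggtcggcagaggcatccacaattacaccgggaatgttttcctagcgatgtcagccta
The motifs searched on both strands were CCNCNCCC, the box bound by Kruppel-like factors, TGATNNAT, a site bound by Pbx and Hox proteins together, and TATAAA, the TATA box, and they were chosen with the expression values known. Hoxd10 had 1 match, GGGTGGGG, to the Kruppel-like factor box on the minus strand. Hoxd8 and Hoxd9 had 0 matches to any of the 3 motifs, which says only that these letters are not in this window. Over the 24 Hox promoters, 3 of them of genes not measured here, the Kruppel-like factor box was in 17 (70.8%) and in 49.5% of all 32851 promoters of that length. The Pbx and Hox site was in 4 (16.7%, against 8.85% of all promoters), and the TATA box in 4 (16.7%, against 13.6%). The Hox promoters held a median of 14.5 CpG dinucleotides (range 4 to 45), against 7 over all promoters. Hoxd8 had 6, Hoxd9 20 and Hoxd10 22.

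Most Hox genes did not read above a level set by the upper range of genes that ES cells and fibroblasts do not use. The table holds no detection calls, so the level was taken from 81 probe sets of olfactory, vomeronasal and trace amine receptors, which are made in sensory neurons. Their 95th percentile was an intensity of 14.1 and 19.5 in the WT pair and 14.1 and 17.1 in the KO pair. A gene was counted where a probe set exceeded this level on both arrays of a group. That held for 10 of 33 Hox genes in KO clones and for 4 in WT clones, beside 66% and 64.6% of all 18193 genes. In all, 3 were above the level in both groups (Hoxa5, Hoxa9 and Hoxc6), 7 in KO clones and not in both WT clones (Hoxb2, Hoxb3, Hoxb6, Hoxb9, Hoxc8, Hoxd8 and Hoxd9), and 1 in WT clones and not in both KO clones (Hoxa3). Over all genes 3.9% were above the level in KO clones and not in both WT clones, and 2.56% the other way. The 64.6% of genes above it in both WT clones could not count in the first share. The 66% above it in both KO clones could not count in the second. Both shares are thus lower than they would be among dim genes alone. The count for WT clones depends on the percentile chosen: it was 2 with the 99th and 7 with the 90th, while for KO clones it was 8 and 12.

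**Figure D1:**
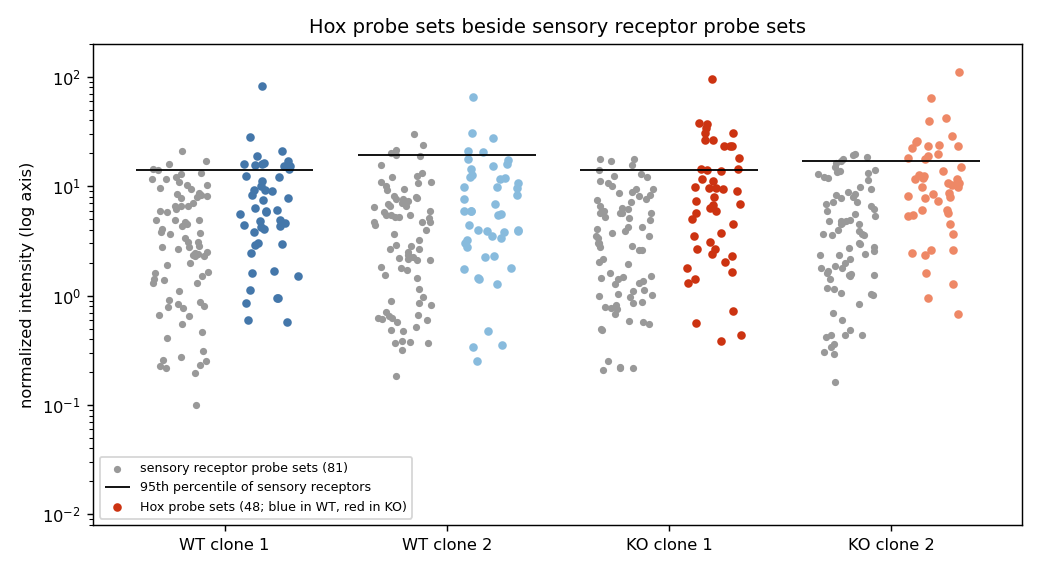
Normalized intensity (log axis) of the 48 Hox probe sets, blue in WT and red in KO clones, beside the 81 sensory receptor probe sets in grey, by array; each point is 1 probe set and the black line is the 95th percentile of the receptors. Most Hox points lie within the range of the receptors on every array, and 14 and 15 exceed the line in KO clones 1 and 2, against 12 and 5 in WT clones 1 and 2.

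The other 22 genes, with 28 probe sets, read from 0.336 to 19.0 in the WT pair and from 0.433 to 19.7 in the KO pair. Hoxb4, Hoxb5, Hoxb7, Hoxc4, Hoxc5 and Hoxc9 of the trunk groups were among them, and so was every measured gene of paralog groups 10 to 13 (10 genes, 12 probe sets). None of those 12 probe sets passed the filter on dim probe sets. Of them, 2 (16.7%) read higher and 3 (25%) lower on both KO arrays than on either WT array. Over all probe sets removed by the filter these shares were 16.8% and 18.6%. That none of these posterior genes, which pattern the distal limb and tail, exceeded the level on both arrays of a group depends on the percentile: with the 90th, Hoxd13 did so in KO clones and Hoxa11 and Hoxc13 in WT clones. On its brighter probe set, 1440626_at, Hoxd13 read 19.0 and 2.78 in the WT pair and 14.09 and 19.7 in the KO pair, so that WT clone 1 and KO clone 2 were above the level and KO clone 1 just under it.

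No Hox probe set passed the test between KO and WT clones. The comparison used limma on log2(quantile normalized intensity + 16), a scale that understates the change of dim genes, over 27022 probe sets, after those with a mean in the dimmest 40 percent (an intensity under 13.05) were removed. Of the 48 Hox probe sets 38 were removed, and of the 10 tested 0 had an adjusted p under 0.05 (limma), beside 2.44% of all tested probe sets called higher without Klf5 and 1.25% called lower. At an unadjusted p under 0.05, 5 of the 10 were higher in KO clones and 0 lower, against 9.77% and 10.6% of all tested probe sets. The filter favours such a count: 5 of the 10 had a WT mean under the filter and passed it through their KO arrays (Hoxb2, Hoxb3, Hoxb9 and both Hoxd8 probe sets), 3 of the 5 counted here among them, and 0 passed through WT arrays alone. A member that is near 0 in WT clones and moderate in KO clones has a low mean, so Hoxc8, Hoxb6 and Hoxd9 were removed. With no filter, over 45037 probe sets, 1 of the 48 passed (Hoxc8), beside 0.364% of all called higher and 0.0577% called lower. At an unadjusted p under 0.05 in that fit, 9 of the 48 were higher and 1 was lower, beside 6.99% and 7.51% of all probe sets.

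Without regard to the test, 21 of 48 Hox probe sets (43.8%), from 16 genes, read higher on both KO arrays than on either WT array, and 7 (14.6%), from 6 genes, read lower in both. Over all probe sets these shares were 21.1% and 24.5%. Among the 38 members under the filter they were 36.8% and 18.4%, beside 16.8% and 18.6% of all probe sets under the filter. For the 81 sensory receptors they were 12.3% and 14.8%. The median difference, KO minus WT, was 0.087 on the log2 scale over all 48, beside -0.012 over all probe sets. Probe sets of 1 gene share their transcript and are not independent.

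By cluster, the shares of probe sets higher in both KO clones were 7 of 11 for Hoxb, 6 of 11 for Hoxc, 5 of 16 for Hoxa and 3 of 10 for Hoxd. Lower in both KO clones were 1, 1, 3 and 2 in the same order. By rank along the clusters, those higher were 5 of 11 for paralog groups 1 to 3, 12 of 20 for groups 4 to 8 and 4 of 17 for groups 9 to 13. Those lower were 2, 2 and 3. Over all probe sets 21.1% were higher and 24.5% lower, and the shares higher for Hoxd (30%) and groups 9 to 13 (23.5%) were nearest to that. All probe sets of paralog groups 2 (2 of 2), 6 (4 of 4) and 8 (3 of 3) read higher in both KO clones. All of group 11 (2 of 2) read lower in both. Within a cluster, neighbours differed: Hoxb2, Hoxb3 and Hoxb6 read higher in both KO clones, while the brighter Hoxb4 probe set, between them, read lower in both. No test of these differences between clusters was made.

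**Figure D2:**
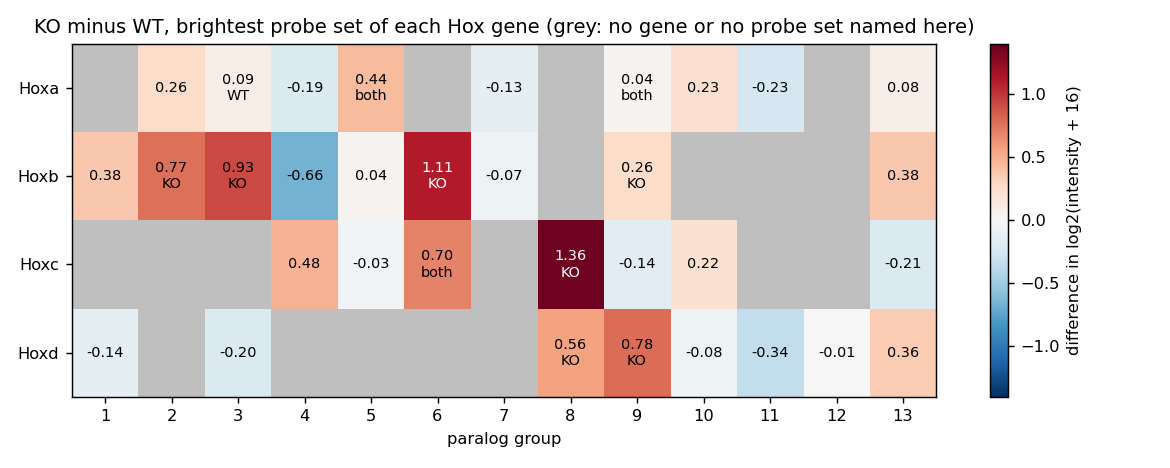
Difference between KO and WT clones (mean of 2 minus mean of 2 of log2(intensity + 16)) for 1 probe set per Hox gene, the brightest one without the suffix _x_at where there is another, by cluster (rows) and paralog group (columns); grey cells have no gene or no probe set named here. The words KO, WT or both mark genes with any probe set above the sensory receptor level in that group, and the largest differences are those of Hoxc8 (1.36) and Hoxb6 (1.11).

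In the Hoxc cluster, Hoxc8, a trunk gene that patterns the thoracic skeleton, had the largest difference of all members. Its only probe set, 1452412_at, read 0.593 and 0.251 in the WT pair and 26.6 and 25.8 in the KO pair. Both KO clones were above the sensory receptor level and both WT clones near the bottom of the scale. The log2 value was higher by 1.36 ± 0.15 (SE, n = 2 arrays per group), and with no filter limma gave adjusted p = 0.037. Without either WT clone its mean passed the filter, through the KO arrays that then outnumber the lone WT array, and the adjusted p was 0.016 and 0.018. In those fits the lone WT array was assumed to vary like the KO arrays, so they add no separate support. Because WT values were near 0, no ratio is given.

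Hoxc6, expressed in the thorax and the forelimb region, had 3 probe sets. On 1427361_at it read 15.7 and 20.8 in the WT pair and 36.8 and 42.1 in the KO pair, and the groups did not overlap. The difference was 0.70 ± 0.19 (95% confidence interval 0.28 to 1.12, limma, adjusted p = 0.079). On 1427362_x_at, whose suffix marks probes that may match other transcripts, the WT clones read 15.4 and 20.8 and the KO clones 23.5 and 63.8, so the KO clones differed more from each other than KO clone 1 did from WT (0.72 ± 0.30, adjusted p = 0.22). The third, 1427454_at, was dim on all arrays, at 1.28 to 5.68. Of its neighbours in the cluster, Hoxc8 was above the sensory receptor level in both KO clones, and Hoxc5 was not above it on both arrays of either group. Hoxc9, on the far side of Hoxc8, was not above it either.

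In the Hoxb cluster, 4 genes were above the level in KO clones and 0 in WT clones. Hoxb6, a trunk gene, read 0.577 and 3.87 in the WT pair and 23.1 and 23.2 in the KO pair on 1451660_a_at. The KO clones were close together and well apart from WT. Its difference was 1.11 ± 0.17 with no filter, and it did not pass (limma, adjusted p = 0.083). Without either WT clone its mean passed the filter, through its KO arrays. The difference was 0.93 without WT clone 1 and larger without WT clone 2. In those fits the lone WT array was assumed to vary like the KO arrays, so they add no separate support.

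Hoxb3, which patterns the hindbrain and pharyngeal arches, had a pair of probe sets that both read higher in both KO clones. On 1456229_at it read 0.943 and 12.7 in the WT pair and 26.7 and 25.3 in the KO pair, a difference of 0.93 ± 0.25 (interval 0.36 to 1.501, limma, adjusted p = 0.084). On 1427605_at it read 2.95 and 3.06 in the WT pair and 13.7 and 18.0 in the KO pair, which was removed by the filter (0.74 ± 0.16 and adjusted p = 0.15 with no filter). The WT clones disagreed on 1456229_at, so the difference depended on which was kept. It was 0.52 without WT clone 1 and larger without WT clone 2.

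Hoxb2, another hindbrain gene, read 11.3 and 12.03 in the WT pair and 33.95 and 28.6 in the KO pair. The groups were apart, and it came closest to the threshold among the members tested, at 0.77 ± 0.18 (interval 0.36 to 1.18, limma, adjusted p = 0.054). After centring each array on its median, in place of quantile normalization, Hoxb2 and Hoxb3 passed (limma, adjusted p = 0.034 and 0.026). In the values as deposited neither passed (limma, adjusted p = 0.50 and 0.27). Hoxb9 read 8.97 and 17.6 in the WT pair and 14.3 and 23.7 in the KO pair, with overlapping groups and KO clone 1 barely above the sensory receptor level (0.26 ± 0.22, adjusted p = 0.55).

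The members of this cluster that were dim in KO clones lie among those that were not. Hoxb4 read 15.3 and 15.2 in the WT pair and 0.731 and 7.30 in the KO pair on 1460379_at, the largest negative difference of the members (-0.66), with adjusted p = 0.25 with no filter. Its other probe set read at most 9.29 on any array, and no WT or KO value of Hoxb4 was above the sensory receptor level on both arrays of a group. Hoxb5 read 0.474 to 1.31 over all 4 arrays.

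A long noncoding RNA of the same stretch passed the test. Hoxb5os, not a member by its symbol and chosen after its values were seen, overlaps Hoxb5 and Hoxb6 in RefSeq. Its probe set 1447886_at read 3.46 and 1.12 in the WT pair and 30.8 and 31.7 in the KO pair, and the groups were far apart. It rose by 1.37 ± 0.18 (limma, adjusted p = 0.0048). Its WT mean was under the filter, which it passed through its KO arrays, and with no filter the adjusted p was 0.045. It passed in each of the 8 alternatives in which it was tested (adjusted p from 0.00058 to 0.045). Those without a WT clone, with the lone WT array assumed to vary like the KO arrays, add no separate support. With either KO clone left out, a pseudocount of 1 or the stricter filter, its mean fell under the filter and it was not tested. The sources used here do not tell which strand and which exons the probes of Hoxb5os and Hoxb6 cover, so the values of this overlapping pair cannot be taken as separate.

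In the Hoxd cluster, Hoxd8 and Hoxd9, whose promoters are printed above, were above the level in KO clones. Hoxd8, expressed in the trunk, read 14.4 and 9.80 in the WT pair and 30.6 and 23.3 in the KO pair on 1431099_at, with no overlap (0.61 ± 0.19, interval 0.17 to 1.05, limma, adjusted p = 0.13). On 1433638_s_at it read 21.0 and 5.96 in the WT pair and 30.4 and 22.2 in the KO pair, where WT clone 1 was close to KO clone 2 (0.56 ± 0.26, adjusted p = 0.26). Hoxd9, of the lower trunk and proximal limb, read 4.28 and 3.93 in the WT pair and 18.1 and 18.9 in the KO pair. The difference was 0.78 ± 0.15 with no filter (limma, adjusted p = 0.12). The KO values of Hoxd9 were only just above the sensory receptor level, and KO clone 2 was under it at the 99th percentile. The next genes on the posterior side were dim: Hoxd10 read 0.352 to 5.90, Hoxd11 0.433 to 10.1 and Hoxd12 0.556 to 2.35.

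The Hoxa cluster, like the others, held no probe set that passed the reported test. Hoxa5, which patterns the neck and the lung, was the brightest member, at 81.7 and 65.1 in the WT pair and 94.8 and 110 in the KO pair, on 1443803_x_at (0.41 ± 0.19, interval -0.026 to 0.85, limma, adjusted p = 0.27). That suffix marks probes that may match other transcripts, and the other Hoxa5 probe set, 1448926_at, read 3.04 and 3.34 in the WT pair and 9.54 and 10.7 in the KO pair, under the sensory receptor level throughout. The probe sets thus disagree on whether the gene is expressed. Hoxa9 on 1421579_at read 28.2 and 30.8 in the WT pair and 23.6 and 39.2 in the KO pair, with no consistent side (0.038 ± 0.21, adjusted p = 0.94). Its other probe set, 1455626_at, was dimmer, at 7.41 and 8.36 in the WT pair and 14.4 and 8.53 in the KO pair, and exceeded the level in KO clone 1 alone. Hoxa3 read 16.1 and 27.7 in the WT pair and 37.5 and 13.8 in the KO pair on 1452421_at, again overlapping (0.094 ± 0.29, adjusted p = 0.89). Of its other 3 probe sets, 1431392_at read 17.1 and 16.1 in the WT pair and 7.26 and 11.8 in the KO pair, lower in both KO clones and removed by the filter, and the others read at most 8.73 on any array. The sign for Hoxa9 turned in the values as deposited (-0.013). Hoxa2, Hoxa4, Hoxa7, Hoxa10, Hoxa11 and Hoxa13 did not exceed the level on both arrays of either group.

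**Figure D3:**
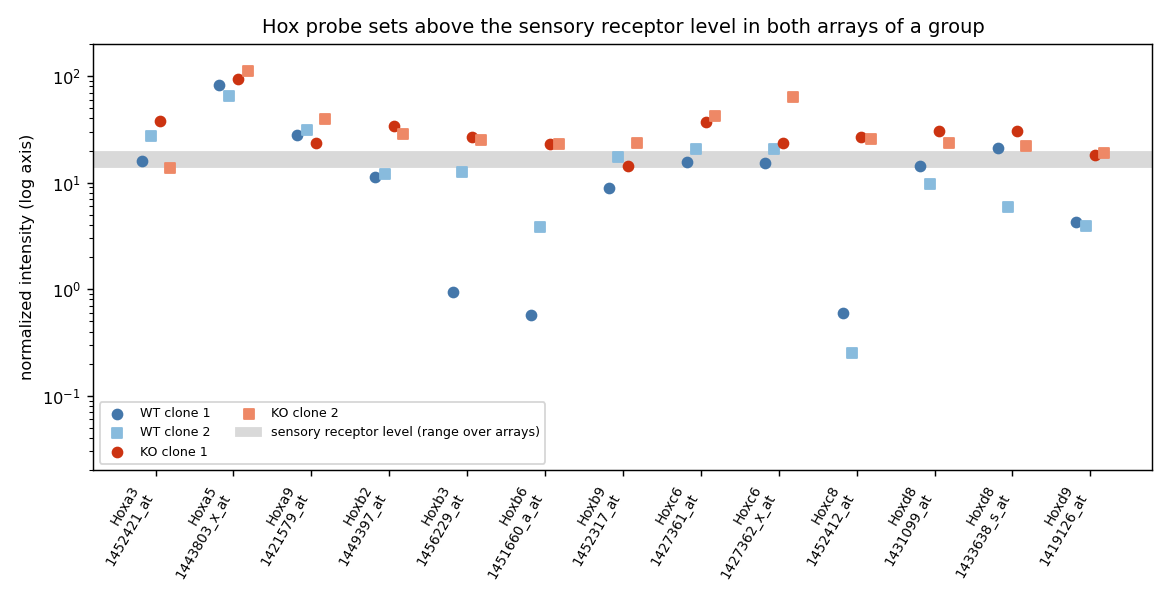
Normalized intensity (log axis) of the 13 Hox probe sets above the sensory receptor level on both arrays of a group; each point is 1 array, circles are clones 1 and squares clones 2, blue is WT and red is KO, and the grey band is the range of the level over the arrays. Hoxc8, Hoxb6 and Hoxd9 show KO clones together above or at the top of the band and WT clones far under it, while Hoxa3 and Hoxa9 overlap.

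**Figure D4:**
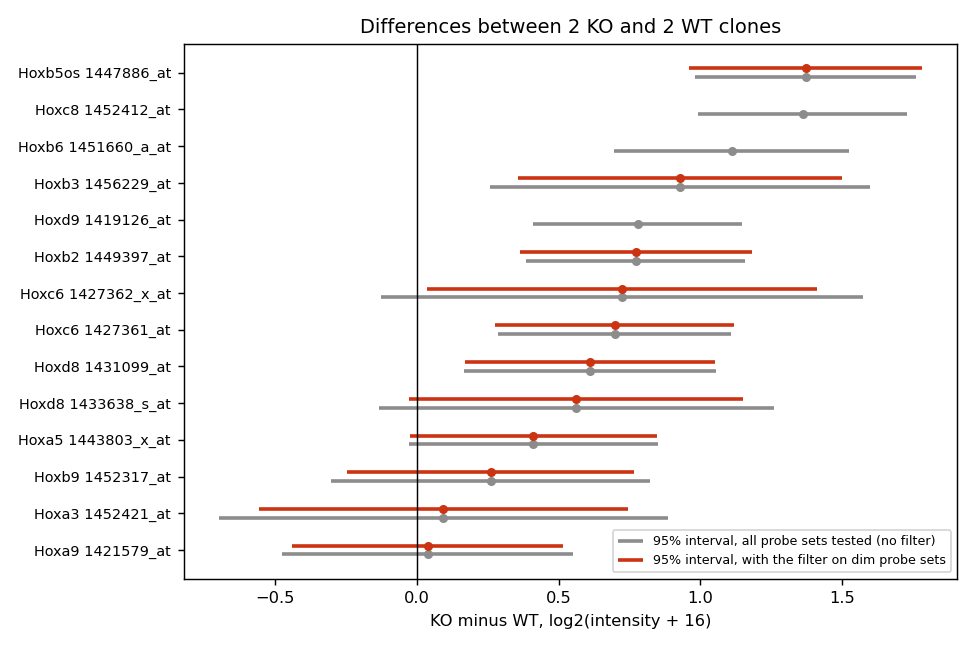
Difference between KO and WT clones on the log2(intensity + 16) scale with 95% confidence intervals from limma for the same 13 probe sets and Hoxb5os, with the filter on dim probe sets (red, where the probe set passed it) and without it (grey). The intervals of Hoxb5os, Hoxc8, Hoxb6, Hoxb3, Hoxd9, Hoxb2, Hoxc6 (1427361_at) and Hoxd8 (1431099_at) lie above 0. That of Hoxc6 on 1427362_x_at does so with the filter only. After adjustment over all probe sets, Hoxb5os passed in both fits and Hoxc8 in the fit without the filter.

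Hox proteins bind DNA together with homeodomain partners of the TALE class, Pbx, Meis and Pknox. Of 8 such genes with a probe set, 7 were tested and 0 passed in either direction (limma, adjusted p under 0.05). Over all tested probe sets 2.44% were called higher and 1.25% lower. The median was -0.015 over all 8, beside -0.012 for all probe sets. A pair of genes chosen after their values were seen lay on opposite sides. Meis1 read 17.6 and 16.6 in the WT pair and 28.4 and 23.5 in the KO pair (0.34, adjusted p = 0.33). Pbx3 read 159 and 141 in the WT pair and 97.0 and 110 in the KO pair (-0.47, adjusted p = 0.19).

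Cdx factors and retinoic acid switch on Hox genes along the axis. Of 20 genes of the Cdx factors, the retinoid pathway and Gdf11 with a probe set, 15 were tested and 0 passed in either direction (limma). The shares over all tested probe sets were 2.44% higher and 1.25% lower. The median was 0.012 over all 20. Rarb, a retinoic acid receptor that is itself induced by retinoic acid, was dim at 0.401 and 0.697 in the WT pair and 6.33 and 1.46 in the KO pair. Cdx1 read 35.7 and 9.87 in the WT pair and 1.01 and 8.88 in the KO pair and was removed by the filter. Both were chosen after their values were seen.

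Of 24 Polycomb and trithorax genes, all tested, 1 rose and 0 fell (median 0.064). A single call is near the share over all tested probe sets, 2.44% called higher and 1.25% lower. Kdm6b (Jmjd3), a demethylase that removes the Polycomb mark from histone H3, read 139 and 129 in the WT pair and 227 and 290 in the KO pair, a rise of 0.86 ± 0.19 (limma, adjusted p = 0.048). It failed whichever of the 4 arrays was dropped (adjusted p from 0.11 to 0.18), and with a pseudocount of 1, no filter, median centring or the values as deposited (0.085 to 0.63).

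Other transcription factors of regional mesenchyme included members that passed. Of 36 with a probe set, 22 were tested, 5 rose, 1 fell and 16 did not pass (limma, adjusted p under 0.05). Over all tested probe sets 2.44% were called higher and 1.25% lower. The median difference was 0.25 over all 36, beside -0.012 for all probe sets. Prrx1, a limb and craniofacial mesenchyme factor, read 7.14 and 3.49 in the WT pair and 188 and 178 in the KO pair and rose by 3.23 ± 0.19 (adjusted p = 7.9e-05). Twist2, a dermal factor, read 15.5 and 19.4 in the WT pair and 109 and 109 in the KO pair and rose by 1.91 ± 0.18 (adjusted p = 0.00089). The other 3 that rose were chosen after their values were seen: Irx3 (1.48), Prrx2 (1.38) and Tbx15 (1.30). Prrx1 and Tbx15 read under the filter on both WT arrays and passed it through their KO arrays. Meox1, below, passed it through its WT arrays. With no filter limma gave adjusted p = 0.0091 for Prrx1 and 0.044 for Tbx15. Irx3, Prrx1 and Twist2 passed in all 12 alternatives, while Prrx2 failed without either KO clone (adjusted p = 0.090 and 0.061) and with a pseudocount of 1, no filter or the values as deposited (0.081, 0.075 and 0.10), and Tbx15 without KO clone 1 or as deposited (adjusted p = 0.067 in each). Meox1, a somite factor, fell by 1.19 ± 0.22 (adjusted p = 0.025), but not without KO clone 1 (adjusted p = 0.16), with a pseudocount of 1 (0.15), with no filter (0.13) or as deposited (0.073), and without WT clone 1 it fell under the filter. Of the 36, 19 were above the sensory receptor level in both KO clones and 9 in both WT clones. Over all genes, counted by any probe set, these shares were 66% and 64.6%. Limb markers lay on both sides of the level. Tbx4, a hindlimb factor, was above it in both groups, at 26.3 and 19.9 in the WT pair and 30.7 and 38.8 in the KO pair (adjusted p = 0.31), while Tbx5, of the forelimb, and Pitx1, of the hindlimb, were above it on both arrays of neither group.

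Of 16 genes of the hindbrain and neural tube, tissues that also express Hox genes, 6 were tested and 0 passed in either direction (limma). The shares over all tested probe sets were 2.44% higher and 1.25% lower. The median was 0.077 over all 16. In KO clones 11 of the 16 were not above the sensory receptor level on both arrays, Sox1, Pax7 and Isl1 among them. Pax3, at 19.0 and 16.9 in the KO pair, missed it in KO clone 2 alone. Irx1, Pax6, Phox2a and Tubb3 were above it in both groups. Of these, Irx1 read 30.3 and 37.4 in the WT pair and 47.0 and 76.7 in the KO pair (limma, adjusted p = 0.17). Egr2, a hindbrain factor, read 6.997 and 9.07 in the WT pair and 26.6 and 20.4 in the KO pair, above the level in both KO clones and in neither WT clone (0.71 ± 0.19, adjusted p = 0.074). After median centring it was the 1 gene of the list that passed. Their summed intensity was 458 and 529 in the WT pair and 535 and 667 in the KO pair. The part of neural cells in the Hox values was not tested.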

How the data were processed

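Total RNA of 2 WT and 2 Klf5 KO ES cell clones was hybridised to Affymetrix GeneChip arrays, 1 per clone. The authors deposited intensities on a linear scale, a value per array for each of 45101 probe sets (64 are controls), and the sources used here do not name the summarisation algorithm, background correction or scaling. The arrays were quantile normalized, log2(intensity + 16) was taken, and controls and probe sets with a mean under the 40th percentile were left out. KO was compared with WT with limma 3.58.1 in R 4.3.3 (lmFit, eBayes; 2 residual and 6.87 prior degrees of freedom), with Benjamini-Hochberg adjustment over the 27022 probe sets kept and a threshold of 0.05. The script was tested on simulated data.

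Gene names came from the platform annotation (34958 rows with 1 symbol, 932 with several, 9160 non-control rows with none), and all 33 Hox gene IDs matched mouse RefSeq (GRCm38.p6). Promoter sequences are RefSeq's. A gene of a list took the values of its brightest probe set by mean, passing over those with the suffix _x_at if it had another. Errors are the moderated standard error (SE). The members and lists were chosen with earlier results of these data known. Named were Hox genes past the threshold or above the sensory receptor level in both arrays of a group, up to 2 genes each way past the threshold from each list, and Klf5. Other genes named from the lists, such as Egr2, Tbx4, Fap and Pax6, fall outside these choices and were named with their values known. A further rule, for genes closest to the Hox gene with the largest rise past the threshold, named none because none passed. Of the genes this rule takes from the lists, S100a4 and Col1a2 (fibroblast list) rose by 5.64 and 3.87 and Nr0b1 (ES cell list) fell by 1.497 on the log2 scale (limma, adjusted p = 3.3e-05, 3.3e-05 and 0.0095). Nr0b1 did not pass without KO clone 1 or 2 (adjusted p = 0.11 and 0.064), with no filter (0.089) or with a pseudocount of 1 (0.098). The number of arrays limits the precision.

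Other settings tried were pseudocounts of 1 and 64, no filter and a 60th percentile filter, no normalization, median centring, a variance trend, the clone number as a block and each array left out. For the level they were its 90th and 99th percentile, the values as deposited, and probe sets without the suffixes _x_at and _s_at.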

Additional observations from a re-analysis of the deposited data

How the results depend on the processing

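The count of Hox probe sets higher in KO clones, 0 as reported, was 1 with no filter, 2 after median centring, and between 0 and 3 with 1 array left out (1 without WT clone 1: Hoxc8; 3 without WT clone 2: Hoxb3, Hoxb6 and Hoxc8; 0 without either KO clone, where the lone KO array was assumed to vary like the WT arrays). The count lower in KO clones was 0 in every alternative. Clone numbers are shared by WT and KO clones, but nothing in the labels pairs them, and the deviations of same-numbered arrays had a correlation of 0.055 across probe sets. With the clone number as a replicate block, 2 Hox probe sets were higher (Hoxb2 and Hoxb3, limma, adjusted p = 0.048 and 0.046). The median difference of the 10 Hox probe sets tested, 5 of which passed the filter through their KO arrays, was 0.59; it was 0.51 with a pseudocount of 1, 0.26 with 64, 0.087 with no filter, 0.41 with the stricter filter (1 member left) and 0.38 in the values as deposited, and 0.42 to 0.57 with 1 array left out. Over all probe sets, the 996 calls became 189 and 2060 with a pseudocount of 1 and 64, 190 with no filter, 332 as deposited, 2535 after median centring, 1955 with a variance trend, and 203 to 653 with 1 array left out. Hox genes above the sensory receptor level in both WT clones numbered 2 with the 99th and 7 with the 90th percentile. Hoxa9 turned to -0.013 as deposited, -0.0023 without WT clone 1 and -0.20 without KO clone 2, and Hoxa3 to -0.12 without WT clone 1 and -0.33 without KO clone 1 (over the 4 leave-outs Hoxa9 reached 0.28 and Hoxa3 0.52). Where the construction does not show it, the cause was not tested. The alternatives for genes outside the Hox clusters were added after seeing the data. Signal near the sensory receptor level limits what can be said of most members.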

Other observations

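Probe sets of the clusters that are assigned to several genes or to noncoding RNAs were not members. The probe set shared by Hoxb7 and Hoxb8, 1452493_s_at, read 9.62 and 3.36 in the WT pair (clone 1 first) and 7.54 and 12.6 in the KO pair. Of a pair shared by Hoxd3 and Hoxd4, 1421537_at read 13.1 and 3.86 in the WT pair and 29.1 and 11.2 in the KO pair, and 1450209_at stayed between 0.4997 and 1.18 on all arrays. Hoxa11os read at most 8.08 and Hoxd3os1 at most 13.3 on any array, and neither exceeded the sensory receptor level on both arrays of a group. Hoxb5os was therefore the only one of these noncoding RNAs, Hoxa11os, Hoxb5os and Hoxd3os1, above that level in both KO clones.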
